A study of Homo sapiens with 5 samples.

Results

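TXNIP and ARRDC4 are the alpha-arrestins whose transcripts are known to follow the glucose metabolites of the cell, and their levels were followed across 5 Illumina BeadChip arrays of the human embryonic stem cell line H1. The members were all probes whose platform gene symbol is TXNIP or ARRDC4, which gave 3 of 47296 probes: ILMN_1697448 for TXNIP, and ILMN_1660544 and ILMN_2184064 for ARRDC4. These 2 of 20041 named genes were chosen by earlier results on these same arrays, namely the lower normalized TXNIP signal with pyruvate in E8 and in BMP4, so their levels and differences are given as a description with no test.

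The base of every culture was E8, a defined medium for pluripotent cells, on plates coated with Matrigel, and the labels name no genetic change. At day 2 there were 4 conditions, namely plain E8, E8 to which 16 mM pyruvate had been added, E8 with BMP4, and E8 holding both agents. The last culture stayed in BMP4 and 16 mM pyruvate until day 6. BMP4 is a growth factor used here to start mesoderm differentiation, and its dose is not stated in the labels. The title of the series concerns added pyruvate, mesoderm and the AMPK and mTOR pathway. Each condition had 1 array, so no value below has a replicate error, and precision is limited by this number of arrays. H1 is 1 line, and fewer cells of a type cannot be told apart from less RNA per cell in such bulk samples.

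Between 35.2% and 40.1% of probes were detected per array, at a detection p-value under 0.01. Of 7 markers of pluripotent cells with a probe, 7 were detected on each array of day 2 and 5 at day 6, where NANOG and SOX2 were not detected. Of 5 streak and mesoderm markers, 1 was detected in E8 (MESP1), 0 with pyruvate, 4 with BMP4 and 5 with BMP4 plus pyruvate on either day. Of 6 markers of trophoblast, amnion, endoderm and neuroectoderm, 2 were detected with BMP4 plus pyruvate at day 2 (CDX2 and SOX17) and 4 at day 6, so the cell states differed between the arrays together with the members' levels, and their part in those levels was not tested. Among the 4 arrays of day 2, that of BMP4 plus pyruvate stood apart. Genes that it alone had 0.5 or more in log2 above or below the remaining arrays, themselves within 0.5, numbered 430 and 594 of 9728, against 36 to 84 in either direction for each of the others.

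Alpha-arrestins are adaptor proteins that bring ubiquitin ligases of the NEDD4 family to proteins at the cell membrane. TXNIP also binds and inhibits the antioxidant protein thioredoxin, and both TXNIP and ARRDC4 are known to restrain glucose uptake. Their genes are classical targets of MondoA (the product of MLXIP) and its relative ChREBP (MLXIPL), which work with the partner MLX at carbohydrate response elements when phosphorylated sugars accumulate. AMPK is known to mark the TXNIP protein for breakdown, a step that transcript arrays do not read.

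The stretch before each start site is shown because both genes are known to answer to MondoA through promoter elements of this kind, which consist of paired E-box-like sequences. The 250 bases before the outermost TXNIP start lie at chr1:145996580-145996829 on the minus strand, and those before the ARRDC4 start at chr15:97960453-97960702 on the plus strand. Both were taken from RefSeq on GRCh38.p14, and both genes matched by symbol. Capitals mark every match, on either strand, to the E-box CACGTG, the NF-Y box CCAAT, the forkhead box TGTTTAC or a pair of CACGNG sequences 5 bases apart.
TXNIP: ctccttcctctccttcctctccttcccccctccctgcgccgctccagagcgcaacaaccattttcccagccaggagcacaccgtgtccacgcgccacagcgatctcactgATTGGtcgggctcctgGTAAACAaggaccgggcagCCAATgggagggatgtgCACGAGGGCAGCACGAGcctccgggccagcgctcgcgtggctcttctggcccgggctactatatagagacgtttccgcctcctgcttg
ARRDC4: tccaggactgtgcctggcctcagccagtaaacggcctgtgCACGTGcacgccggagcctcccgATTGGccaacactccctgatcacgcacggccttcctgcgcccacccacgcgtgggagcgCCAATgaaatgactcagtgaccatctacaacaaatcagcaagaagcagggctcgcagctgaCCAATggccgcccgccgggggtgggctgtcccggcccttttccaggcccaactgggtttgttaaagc

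The TXNIP stretch held the pair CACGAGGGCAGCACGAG, which begins 88 bases before the start, and this paired motif was written down after the sequence had been seen. It occurs in 16 of 35116 RefSeq promoter stretches of the same length, 0.0456%. The degenerate consensus of the carbohydrate response element occurs in 0.458% of stretches and in neither of these. ARRDC4 held 1 plain E-box, 210 bases before its start, a sequence found in 6.34% of stretches. NF-Y boxes, bound by a general activator, occurred 2 times before TXNIP and 3 times before ARRDC4, and 32% of stretches hold at least 1. A forkhead box, the kind of sequence that FOXO factors recognise, stood 124 bases before TXNIP and is found in 2.98% of stretches. A further TXNIP start site listed by RefSeq held none of these motifs. A match describes letters in this window only and is not a bound site.

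TXNIP was detected on all 5 arrays. Its deposited intensity, a linear brightness, was 1892 in E8, 709 with pyruvate, 784 with BMP4, 419 with BMP4 plus pyruvate at day 2 and 2757 with that mixture at day 6. After background correction and quantile normalization, which put all arrays on one distribution, the log2 levels in the same order were 10.59, 9.34, 9.75, 7.92 and 11.33. From high to low the arrays therefore ran from BMP4 plus pyruvate at day 6 through E8, BMP4 and pyruvate to BMP4 plus pyruvate at day 2. The steps between neighbours in this order were 0.74, 0.84, 0.41 and 1.42. No replicate spread exists, and the only yardstick within arrays was the SD of the disagreement between 2 probes of the same gene, over all genes with 2 detected probes. Each step was larger than that SD for its pair of arrays, which ran from 0.30 to 0.58, and the closest was BMP4 over pyruvate, 0.41 against 0.30. Without normalization or background correction that last step was 0.14, under the SD. The SD covers probe disagreement and not the difference between cultures.

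**Figure D1:**
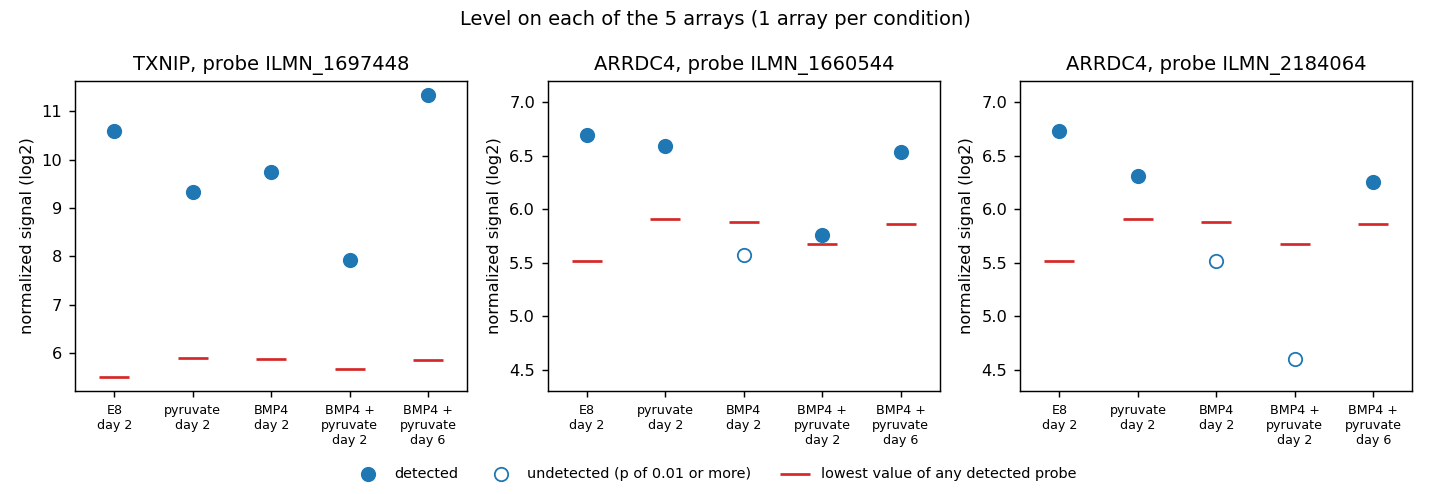
Normalized log2 signal of the TXNIP probe and both ARRDC4 probes on each of the 5 arrays, 1 point per array, with open points where the probe was undetected and a red tick at the lowest detected signal of that array. TXNIP ran from 7.92 to 11.33 with every point far above the tick, while ARRDC4 lay near it with BMP4 at day 2; levels of different probes cannot be compared.

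ARRDC4 was read close to background. Probe ILMN_1660544 had deposited intensities of 250 in E8, 208 with pyruvate, 158 with BMP4, 191 with BMP4 plus pyruvate at day 2 and 221 at day 6, and it was detected on 4 arrays, all but BMP4 (detection p-value 0.0182). Its normalized log2 levels in that order were 6.69, 6.59, 5.58, 5.76 and 6.53. Probe ILMN_2184064 had normalized levels of 6.73, 6.31, 5.52, 4.60 and 6.25 and was undetected with BMP4 (0.0273) and with BMP4 plus pyruvate at day 2 (0.669). Both probes were highest in E8 and low on the day 2 arrays with BMP4, and both were detected again at day 6. They did not order those BMP4 arrays alike, since the first probe was lowest with BMP4 and the second with BMP4 plus pyruvate. For ILMN_1660544 the gaps between E8, pyruvate and day 6 (0.10 and 0.05) and between the day 2 arrays with BMP4 (0.18) were smaller than the SD between probes, and the gap of 0.78 between day 6 and BMP4 plus pyruvate at day 2 was larger. Where a single ARRDC4 value is given below, it is that of ILMN_1660544, the probe with the higher mean over the arrays.

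Pyruvate alone, against E8 at day 2, went with less TXNIP and little difference in ARRDC4. TXNIP was 2.38-fold lower, a log2 difference of -1.25, and ranked 52 from the lowest of 11475 detected genes. Both ARRDC4 probes were lower as well, by -0.10 and -0.42. A difference of 1 or more in log2, which is 2-fold, was taken as the size rule where the gene was detected on the brighter array. TXNIP was the 1 of 2 members past it, beside 2.37% of all detected genes, and since this contrast helped to choose TXNIP nothing is read from that share. For ILMN_1660544 the difference was smaller than the SD between probes of 0.33, and for ILMN_2184064 it was larger.

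In pyruvate added to BMP4 at day 2, the other contrast by which TXNIP was chosen, it was 3.54-fold lower (-1.82), ranking 20 from the lowest of 11198 genes. It was the 1 of 2 members past 2-fold, beside 6.79% of all detected genes. Since the choice fixed the shared direction of these contrasts, nothing is read from the agreement, the rank or the share. ARRDC4 gave no fold in this comparison. With BMP4 alone both of its probes were undetected, and with pyruvate added ILMN_1660544 was just detected at 0.18 above its undetected value, while ILMN_2184064 was undetected on both arrays. With each array scaled to its 75th percentile in place of quantiles, ILMN_1660544 lay at -0.12. The median of all detected genes lay at -0.14 under that scaling, and relative to it TXNIP was lower by -1.72 and ARRDC4 differed by 0.02. Without normalization or background correction TXNIP differed by -0.90, short of 2-fold. With normalization but no background correction it differed by -1.42. This comparison rests on the array that stood apart, and the value that does not use it is the -1.25 in E8. The pyruvate difference of TXNIP in BMP4 minus that in E8 was -0.57 in log2. It turned to 0.51 without normalization or background correction, so the data give no stable order of the 2 differences.

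**Figure D2:**
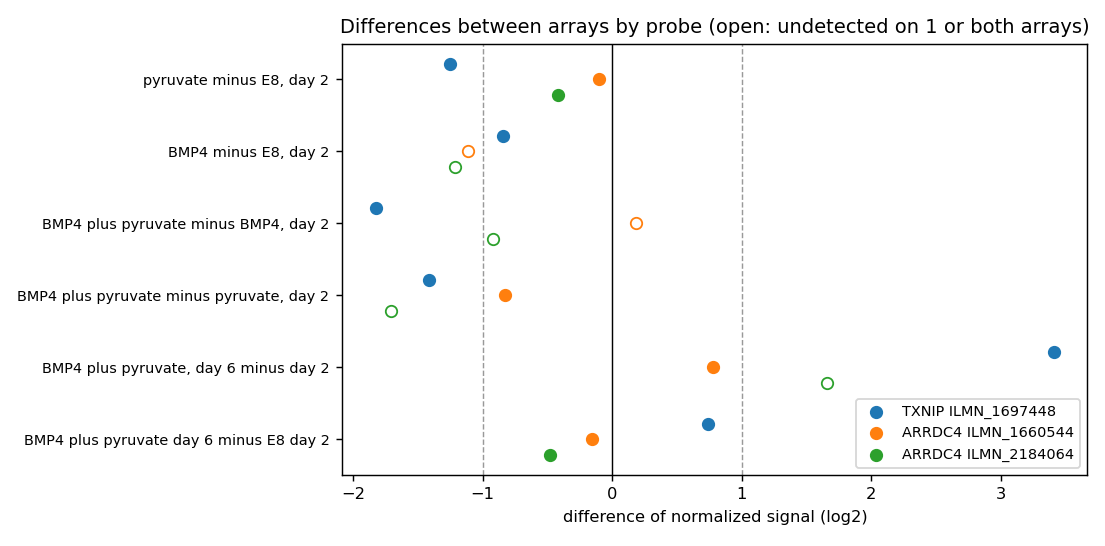
Log2 differences in normalized signal for each probe in the 6 comparisons, with dashed lines at 2-fold and open points where a probe was undetected on 1 or both arrays. TXNIP lay left of 0 in all 4 comparisons of day 2, among them those by which it was chosen. For day 6 against day 2 it lay at 3.41. The ARRDC4 probes lay nearer to 0 with pyruvate alone, at -0.10 and -0.42.

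With BMP4 as the sole addition to E8, the signal of both arrestins was lower at day 2. TXNIP was 1.80-fold lower (-0.84), short of the size rule, and ranked 472 from the lowest of 11559 genes. Without normalization or background correction it differed by -1.27, past the rule. ARRDC4 was at least 1.75-fold lower by ILMN_1660544 and at least 1.80-fold lower by ILMN_2184064, bounds set by the lowest detected signal of the BMP4 array. Its measured differences were -1.12 and -1.21, so ARRDC4 was the 1 of 2 members past 2-fold by measured value, beside 5.20% of all detected genes. Without background correction its bound shrank to -0.31 in log2.

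When pyruvate was present in both cultures, BMP4 showed the same direction for both genes. TXNIP was 2.67-fold lower (-1.42) and ARRDC4 1.78-fold lower (-0.83) by ILMN_1660544, or at least 1.55-fold lower by ILMN_2184064. With ARRDC4 read by ILMN_1660544, TXNIP was the 1 of 2 members past 2-fold, beside 12.2% of all detected genes. The measured difference of ILMN_2184064, undetected with BMP4 plus pyruvate, was -1.71. With the mean over probes ARRDC4 differed by -1.27, past 2-fold. Without normalization or background correction TXNIP differed by -0.76 and ARRDC4 by -0.12. The comparison uses the array that stood apart, and the BMP4 differences that do not use it are -0.84 for TXNIP and the ARRDC4 bounds against E8. Taken against E8, the combination of both agents lay 6.36-fold lower in TXNIP, -2.67 in log2, where the separate differences for pyruvate and BMP4 add to -2.09. Without normalization or background correction this order turned round, with -2.17 for the combination and -2.69 for the sum.

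Between day 2 and day 6 of BMP4 plus pyruvate the TXNIP signal went from its lowest to its highest level. At day 6 it was 10.6-fold higher (3.41), ranking 157 from the highest of 11628 genes. ARRDC4 was 1.71-fold higher (0.78) by ILMN_1660544 and at least 1.49-fold higher by ILMN_2184064. With ARRDC4 read by ILMN_1660544, TXNIP was the 1 of 2 members past 2-fold, in a comparison where 26.5% of all detected genes were. The measured difference of ILMN_2184064, undetected at day 2, was 1.65. With the mean over probes ARRDC4 differed by 1.22, past 2-fold. Each time point was 1 culture, and the markers above show that cell state, time in culture and the array that stood apart move together here; they cannot be told apart.

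Against E8 at day 2, a comparison that leaves that array out, day 6 cells had 1.67-fold more TXNIP (0.74). ARRDC4 differed by -0.16 and -0.48 by its probes. Neither gene passed 2-fold, so 0 of 2 members did beside 24.8% of all detected genes. The sample label gives 16 mM pyruvate for the day 6 culture as well, so the TXNIP level in cells with added pyruvate ranged from 7.92 to 11.33 over the 3 arrays with it, and from 9.75 to 10.59 over the others. The groups with and without added pyruvate overlap through the day 6 array, and no day 6 array without pyruvate exists to set beside it. At day 2, in the contrasts by which TXNIP was chosen, the levels were 9.34 and 7.92 with pyruvate and 10.59 and 9.75 without.

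**Figure D3:**
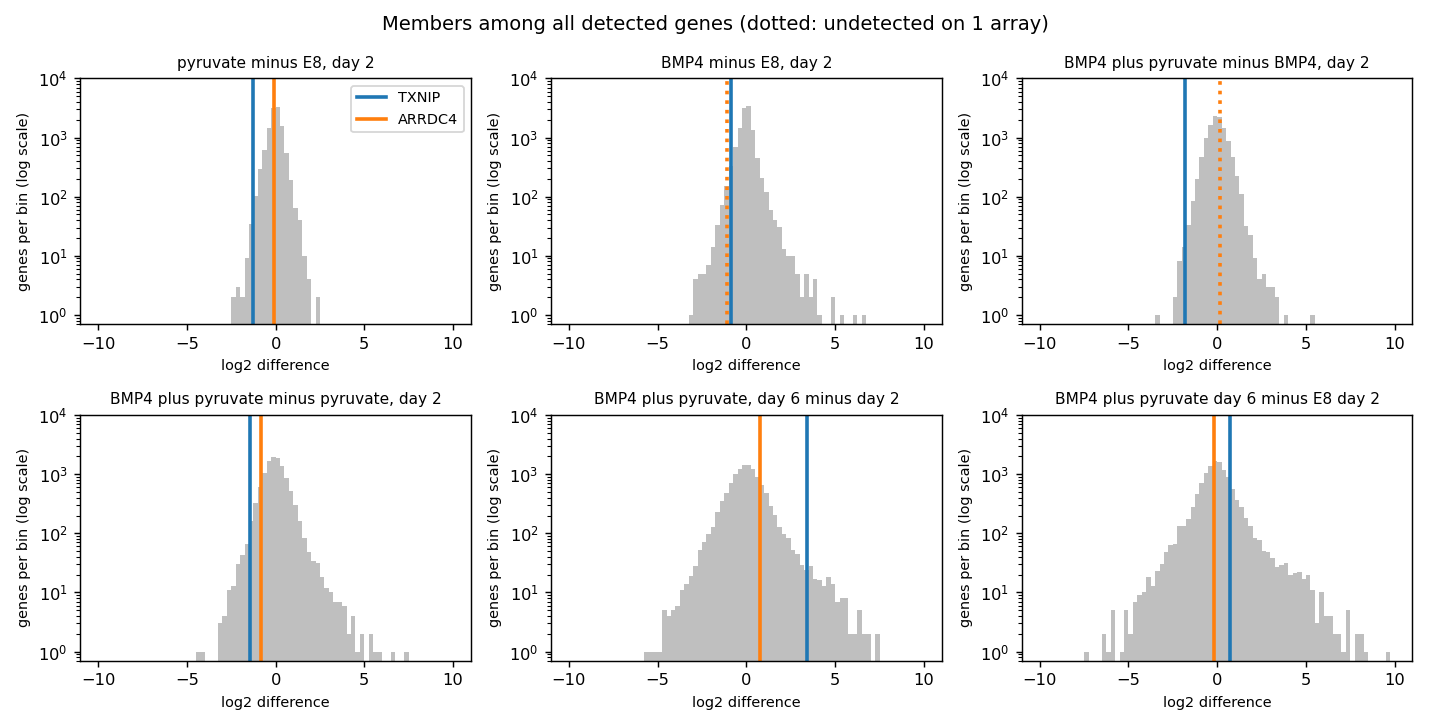
Number of detected genes per 0.25 of log2 difference (log scale) in each of the 6 comparisons, with vertical lines for TXNIP and for ARRDC4 by ILMN_1660544, dotted where ARRDC4 was undetected on 1 array. TXNIP lay in the lower tail with pyruvate (-1.25 and -1.82), in the contrasts by which it was chosen. From day 2 to day 6 it lay in the upper tail (3.41). ARRDC4 lay within the bulk except in BMP4 against E8.

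Of the other alpha-arrestins, 2 of 4 were detected, and neither was past 2-fold in a comparison within day 2. Between 2.37% and 12.2% of all detected genes were past it in those comparisons. ARRDC2 was detected on all 5 arrays with levels of 7.58 in E8, 7.88 with pyruvate, 7.77 with BMP4, 7.66 with both at day 2 and 7.35 at day 6. It spanned 7.35 to 7.88, while TXNIP spanned 3.41 in log2. ARRDC3, which is known to bring down beta-adrenergic receptors, had levels of 6.02, 6.45, 5.87, 5.76 and 8.60 in the same order. It was detected on 4 arrays, and its value with BMP4 lay under the lowest detected signal of that array, 5.88. With both agents at day 2 it lay close to the lowest detected signal, 5.76 against 5.67. At day 6 ARRDC3 was 7.19-fold higher than at day 2 of BMP4 plus pyruvate, or 2.86-fold without background correction and 3.29-fold with the mean over probes. Its pyruvate difference in E8 was 0.43, opposite in sign to that of TXNIP. ARRDC1 and ARRDC5 were detected on 0 arrays.

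In the thioredoxin system, to which the known partner of TXNIP belongs, members differed in both directions with pyruvate and none passed 2-fold. Of 11 members with a probe, all detected, 0 were past 2-fold with pyruvate in E8 and 0 with pyruvate in BMP4. The median was 0.02 in each, where the medians of all detected genes were 0.00 and -0.02. Of all detected genes 2.37% and 6.79% passed 2-fold, so nothing is read from the counts of 0. TXN, thioredoxin itself, differed by -0.02 and 0.04 in these comparisons. TXNRD1, the reductase that recharges it, differed by -0.20 and 0.80, and by -0.04 and 0.11 by a further probe. With pyruvate in BMP4, TXNRD2 differed by 0.61, NXN by 0.60, TXN2 by -0.55 and TXNDC17 by -0.39, and in E8 TXNRD2 differed by -0.57 and was not detected with pyruvate. With BMP4 in pyruvate, NXN was 2.14-fold higher and TXNRD2 at least 1.90-fold, where 12.2% of all detected genes passed 2-fold. But NXN differed by 0.87 with scaling to the 75th percentile. TXNRD2 differed by 0.63 without background correction and 0.92 with the mean over probes.

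Members of the MondoA network differed in both directions with pyruvate in E8. MXD3 had 6.98 in E8 and 6.34 with pyruvate, and MXD4 8.67 and 8.14, while MLX had 6.87 and 7.22. Of 10 detected members 0 passed 2-fold, beside 2.37% of all detected genes, with a median of -0.14 against 0.00 for all genes. MLXIP, the gene of MondoA, was detected on 0 arrays and MLXIPL on 1, so the levels of the factors themselves were not read. With pyruvate in BMP4, on the array that stood apart, 1 of 11 detected members was higher and 3 were lower, with a median of -0.21 against -0.02. Of all detected genes, 6.79% passed 2-fold in that comparison. MLX, the shared partner, was 2.04-fold higher. MXD4, a MAX-binding repressor, was 2.65-fold lower, MXI1, of the same family, 2.07-fold lower, and MYCN 2.15-fold lower, though a further MYCN probe differed by -0.27. By day 6, MXD4 was 8.48-fold higher than at day 2 of that mixture, or 5.68-fold without background correction. MXI1 was 3.32-fold higher, but its log2 difference was 0.75 without background correction and 0.47 with the mean over probes.

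Among other genes known as MondoA or ChREBP targets, none was past 2-fold lower with pyruvate in E8 or in BMP4. Of 12 detected, 0 passed 2-fold with pyruvate in E8 by the brightest probe, beside 2.37% of all detected genes. The median was 0.20 against 0.00 for all genes. Dimmer probes of LDHA differed by 1.20, past 2-fold, and by 0.29. With pyruvate in BMP4 the median was 0.15 against -0.02, and 3 passed, all higher, beside 6.79% of all detected genes. The higher ones were RGS16, a brake on G-protein signalling, at 2.71-fold, the transcriptional repressor BHLHE40 at 2.59-fold and KLF10, a TGF-beta response gene, at 2.21-fold, with a further KLF10 probe at 0.30 in log2. BHLHE40 and RGS16 were also higher with BMP4 alone against E8, 2.27-fold and 5.49-fold, or 0.97 and 1.40 in log2 without background correction. In that comparison 5.20% of all detected genes passed 2-fold. From day 2 to day 6 of BMP4 plus pyruvate, 26.5% of all detected genes passed 2-fold. Among 13 detected targets HK2, KLF10, TKT and RGS16 were lower. PDK4, which restrains the entry of pyruvate into the mitochondrial cycle, was at least 2.25-fold higher. Of these 5, only RGS16 was past 2-fold in each of the settings run for it, and the others came as close to 0 as -0.96 for HK2, -0.73 for KLF10, -0.96 for TKT and, by measured value, 0.83 for PDK4.

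Glucose transporters, some of which the arrestins are known to draw from the cell surface, differed in both directions with pyruvate. Of 9 detected, 1 passed with pyruvate in E8, beside 2.37% of all detected genes, and the median was -0.07. The transporter that passed was SLC2A6, at 2.57-fold, which had levels of 6.53, 7.89, 6.75, 7.56 and 7.35 from E8 to day 6. With pyruvate in BMP4 the median was 0.30 against -0.02 for all genes, and 2 of 8 passed, both higher, beside 6.79% of all detected genes. SLC2A1, the widespread transporter GLUT1, had levels of 10.99, 11.50, 11.07, 12.14 and 10.41 and was 2.11-fold higher, or 0.84 in log2 with scaling to the 75th percentile. SLC2A14 was 2.52-fold higher, but it is nearly identical to SLC2A3 and its probe may read both. Other transporters had lower values with pyruvate by their brightest probe. SLC2A12 differed by -0.98 in E8 and -0.86 in BMP4, and SLC2A10 by -0.47 and -0.72, or 0.07 and -1.05 by a further probe. SLC2A10 was lowest with BMP4 plus pyruvate at day 2 (8.91) and highest at day 6 (10.81), as TXNIP was. This was not particular to it, since genes of other lists shared it, among them ARRDC3, MXD4, MXI1, MNT, WWP1, ITCH and, by its brightest probe, FOXO3. A further FOXO3 probe differed by 0.27 with pyruvate in BMP4 and by -0.14 from day 2 to day 6 of BMP4 plus pyruvate. Of the hexokinases, which trap glucose in the cell, 2 were detected. With pyruvate 0 passed 2-fold in either setting, beside 2.37% of all detected genes in E8 and 6.79% in BMP4. HK2 differed by 0.01 and 0.16, or by 0.48 and -0.91 by a further probe.

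Of the NEDD4-family ligases that bind alpha-arrestins, 7 were detected and 0 passed with pyruvate in E8 (median -0.02), beside 2.37% of all detected genes. With pyruvate in BMP4, 1 of 7 passed by measured value, beside 6.79% of all detected genes. This was NEDD4, at least 1.09-fold higher, and 6 were neither. At day 6 against day 2 of BMP4 plus pyruvate, 3 of 7 were past 2-fold higher and 1 lower, beside 26.5% of all detected genes. WWP1 was 4.67-fold higher (2.38-fold with the mean over probes) and HECW2 3.54-fold (2.02-fold without background correction), while NEDD4L was 4.55-fold lower (2.48-fold without background correction). NEDD4 was 2.15-fold higher, but its log2 difference was 0.47 without background correction. ITCH, known to ubiquitinate TXNIP, had levels of 7.69 in E8, 7.78 with pyruvate, 7.82 with BMP4, 7.12 with both at day 2 and 7.99 at day 6. Of 10 detected partners and regulators of TXNIP, 0 passed with pyruvate in E8 or in BMP4, beside 2.37% and 6.79% of all detected genes. DDIT4, known to form a complex with TXNIP, was 2.58-fold lower with BMP4 alone, the 1 of 10 to pass beside 5.20% of all detected genes.

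**Figure D4:**
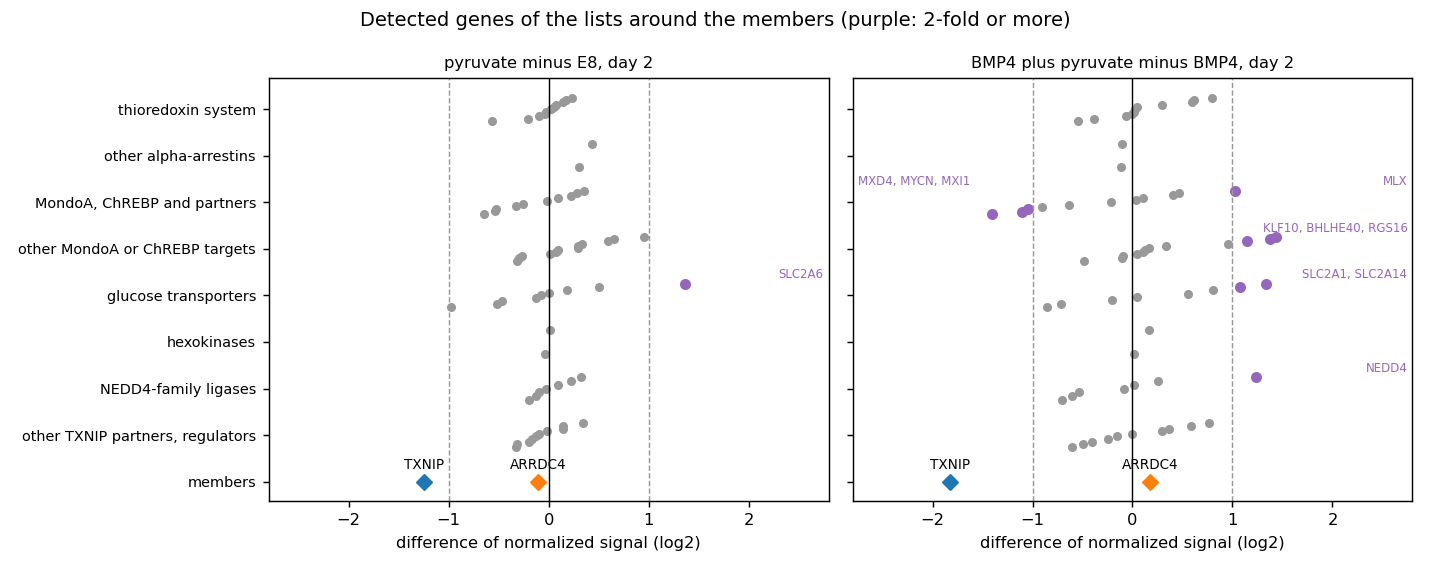
Log2 differences of the detected genes of the 8 lists with pyruvate in E8 (left) and pyruvate in BMP4 (right), 1 point per gene, purple and named where the measured difference was 1 or more, with TXNIP and ARRDC4 as diamonds at the bottom. With pyruvate in E8 only SLC2A6 of the listed genes passed. TXNIP was chosen by its lower signal in both contrasts shown, so nothing is read from its place below the listed genes. NEDD4, and ARRDC4 on the right, were undetected with BMP4.

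Over all 8 lists, 1 of 62 detected genes passed 2-fold with pyruvate in E8 and 10 of 62 with pyruvate in BMP4, 7 higher and 3 lower. Under the alternatives run for listed genes, which did not include leaving out normalization, 4 of those 10 stayed past 2-fold, and their smallest differences were 1.21 for BHLHE40, 1.20 for RGS16, 1.15 for SLC2A14 and -1.02 for MXD4. The others came as close to 0 as 0.84 for SLC2A1, -0.69 for MYCN, 0.59 for MLX, 0.55 for KLF10, 0.35 for NEDD4 and -0.19 for MXI1, and SLC2A6 in E8 came to 0.73. The medians were -0.01 and 0.02, beside 0.00 and -0.02 for all detected genes, and the background shares are those given above for the same comparisons. In BMP4 against E8, 3 of 62 passed, beside 5.20% of all detected genes. Between day 2 and day 6 of BMP4 plus pyruvate 18 of 63 passed, beside 26.5%.

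The genes whose profile was nearest to TXNIP were sought among 3159 genes detected on all 5 arrays with a range of 1 or more in log2. Likeness was the root mean square distance over the 5 arrays after each gene was centred on its own mean. The nearest was CLIP3, which encodes a linker protein of membrane traffic, at a distance of 0.20, with levels of 8.63 in E8, 7.86 with pyruvate, 8.29 with BMP4, 6.52 with both at day 2 and 9.72 at day 6. FREM2, an extracellular matrix protein, followed at 0.36, the pseudogene CASTOR3P at 0.37, the leptin receptor gene LEPR at 0.38, the phospholipase gene PLCB1 at 0.41 and OTX2, a factor of anterior neural and early epiblast cells, at 0.42. The median distance of all candidates was 1.32. The likeness rested mostly on the BMP4 plus pyruvate arrays of both days, since the pyruvate difference in E8 was -0.77 for CLIP3, -1.01 for CASTOR3P and -0.94 for OTX2 but -0.12 for FREM2 and -0.09 for PLCB1. ARRDC4 was not detected on all arrays and was no candidate. Its distance to TXNIP was 0.96. The order of the 5 arrays was the same as in TXNIP for 80 of the candidates, 2.53%, and 1 of these had a range as large. Part of that order, E8 over pyruvate and BMP4 over BMP4 plus pyruvate, was fixed by the choice of TXNIP. Nothing is therefore read from these counts.

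**Figure D5:**
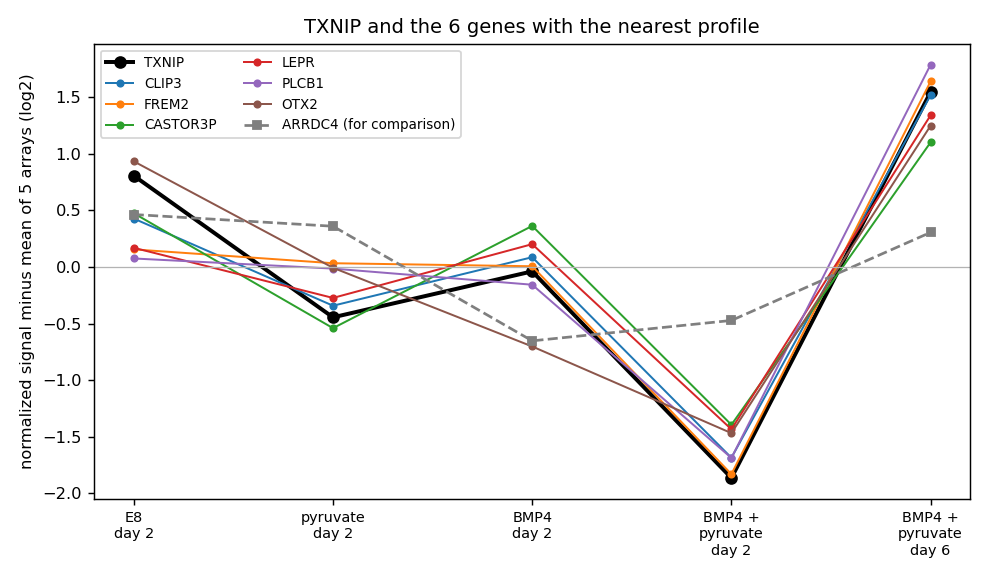
Normalized log2 signal minus each gene's mean over the 5 arrays for TXNIP (black), the 6 genes nearest to it and ARRDC4 (dashed grey); lines only join the points of a gene. All 7 solid profiles were lowest with BMP4 plus pyruvate at day 2 and highest at day 6, while ARRDC4 was highest in E8.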

How the data were processed

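Total RNA of 5 H1 cultures, 1 per condition, was read on 5 arrays. The deposited intensity of a probe is a summarized brightness without normalization, as the name of the deposited table says, and each comes with a deposited detection p-value. The deposited log2 values of the other table have columns that share one distribution, their origin is not given in the sources used here, and they served as an alternative. Scanner software is not given in the sources used here. All per-sample columns were used.

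Intensities were corrected for background and quantile normalized with limma 3.58.1 (neqc, which reads detection p-values, offset 16, log2) in R 4.3.3. Quantile normalization hides any change in total RNA, and the offset shrinks differences of dim probes. Of 47296 probes, 30105 had 1 gene symbol, 8 several and 17183 none in the platform annotation, and 30066 matched RefSeq by Entrez identifier. A gene with several probes was read by the one with the highest mean. A bound replaces an undetected value by the lowest detected signal of its array, unless the probe itself read higher. No test was run, since 1 array per condition leaves no error.

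Named genes were the members, listed genes past 2-fold in a pyruvate comparison with examples for other sentences, and the 6 nearest profiles. The members, the 8 lists (87 genes, 82 with a probe, 5 not analysed here) and these rules were chosen with earlier results of these data known. The normalization and size rule were tested on simulated data. Alternatives changed the background correction, normalization, offset, source of values, detection threshold, probe rule and size rule. The alternative without normalization was the log2 of the deposited intensities, so it left out background correction too.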

Additional observations from a re-analysis of the deposited data

How the results depend on the processing

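TXNIP kept its direction in all 6 comparisons under each of 7 alternatives. Those of the detection threshold and the mean over probes could not move it, since its 1 probe was detected on every array. ARRDC4 kept its direction in the 5 comparisons where it had a value. For pyruvate in BMP4, where it gave no fold, its measured difference of 0.18 turned to -0.12 with scaling to the 75th percentile. With the mean over probes it was -0.37. With pyruvate in E8, TXNIP ranged from -1.42 to -1.11. Without normalization or background correction some values moved by more than the SD between probes. TXNIP moved to -1.27 for BMP4 against E8, -0.90 for pyruvate in BMP4, -0.76 for BMP4 in pyruvate and 2.72 for day 6 against day 2. ARRDC4 moved to -0.12 for BMP4 in pyruvate. Without background correction the ARRDC4 bound for BMP4 against E8 moved to -0.31. The mean over probes put ARRDC4 past 2-fold for BMP4 in pyruvate (-1.27) and for day 6 against day 2 (1.22).

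The counts of genes past 2-fold depended on the setting, in the order of the comparisons pyruvate in E8, BMP4 in E8, pyruvate in BMP4, BMP4 in pyruvate, day 6 against day 2 and day 6 against E8. They were 272, 601, 760, 1380, 3082 and 2969, and without background correction 23, 148, 145, 422, 1367 and 1384. An offset of 50 gave 71, 283, 348 and 804 in the first 4, and the deposited log2 values 130, 394 and 459 in the first 3. A 1.5-fold rule gave 1409, 1734, 2752, 3650, 5649 and 5459. Scaling to the 75th percentile left counts within 1.5 times but moved the share of higher calls from 44.1% to 62.8%, 51.6% to 66.9%, 54.9% to 33.9% and 52.8% to 37.2% in the first 4.

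Of the listed genes, 1 passed with pyruvate in E8 and 0 without background correction. In pyruvate with BMP4 10 passed, but 6 without background correction and 6 with an offset of 50. Without background correction 4 instead of 7 passed for BMP4 in pyruvate and 11 instead of 18 for day 6 against day 2. The cause of these moves was not tested. No paired analysis was possible because each condition had 1 array. ARRDC4 lay close to background, which limits what its probes can show.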
